A study of Mus musculus with 4 samples.

Results

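The genes described here encode complement components, receptors and regulators, chosen by name: 31 genes of the 27670 on the arrays, read by 46 probes, with 11 of them read by more than 1 probe. They were measured in liver and spleen of male C57BL/6J mice, aged 7 weeks, all of which had received lipopolysaccharide, a component of the bacterial cell wall that provokes systemic inflammation. The control group ate a purified diet holding 0.03% nucleic acids, and the nucleoprotein group ate that kind of diet plus 1.2% of a nucleoprotein product, for a nucleic acid content of 0.5%. Feeding lasted 4 weeks, lipopolysaccharide was given at 10 mg/kg, and the organs were collected after a further 6 h. RNA was pooled within each diet, with no number of mice per pool given in the sources used here. Mice without lipopolysaccharide were not analysed here.

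Each organ was hybridised to 2 two-colour arrays, on which a short DNA probe for each transcript binds the control and nucleoprotein RNA at the same time in different dyes. On array 1 of an organ the nucleoprotein RNA carried the red dye Cy5, and on array 2 it carried the green dye Cy3. The labels number the pooled samples but do not say that they came from different mice, so both arrays of an organ were counted as 1 replicate, no test was possible and no p-value is given. A diet ratio below is the log2 of nucleoprotein over control, given on array 1 and array 2 and as a mean ± SD (n = 2 arrays), where the SD covers labelling and array error. A level is the log2 normalized intensity of 1 channel, and levels of different probes cannot be set against each other. A gene was measurable in an organ if its probe stood well above background on both arrays for at least 1 diet, which held for 28 of the 31 genes in liver and 24 in spleen. A gene was called higher or lower with nucleoprotein when both arrays passed 1.5-fold the same way, which is 0.58 in log2 units.

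Complement is a set of plasma proteins, receptors and regulators that marks microbes and damaged cells for uptake, draws in leukocytes and punctures membranes. It is started by antibody-bound C1q (the classical pathway), by sugar-binding collectins and ficolins (the lectin pathway), or by spontaneous turnover of C3 that factor B, factor D and properdin amplify (the alternative pathway), and all of these lead to cleavage of C3 and C5 and to assembly of the terminal pore. Hepatocytes make most plasma complement and raise part of it in the acute-phase response, while C1q, properdin and ficolins come mainly from cells of the myeloid lineage, and Cr2, complement receptor 2, is borne by B cells and follicular dendritic cells.

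Across the arrays, 55.2% to 66.9% of gene spots on the liver arrays and 62.2% to 72.8% on the spleen arrays stood well above background, and no spot of a complement gene was saturated. The organs carried their markers: 10 of 10 hepatocyte markers were brighter in liver, and 5 of 5 measurable B cell markers were brighter in spleen. The pools of the 2 diets also differed in markers of other tissue. Of 8 pancreatic acinar markers, 8 were called lower with nucleoprotein in liver (median -4.10) and 7 in spleen (median -1.25), and 7 of 9 measurable hepatocyte markers were called higher in spleen (median 1.33). What part these shifts have in the values below was not tested, and in such bulk RNA a change in the number of cells of a type cannot be told apart from a change in RNA per cell.

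The largest differences among complement genes lay between the organs. An organ difference is liver minus spleen, taken in the 4 pairs of channels that share diet and dye, and it was called when all 4 pairs passed 2-fold the same way. Among the 29 complement genes that could be measured in at least 1 organ, liver was brighter for 18, spleen for 6, and 5 were not called. Over all 19091 measurable genes, 12.5% were brighter in liver and 16.2% in spleen. The median difference was 2.53 log2 units over the complement genes and -0.09 over all genes.

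Grouped by the usual source of the protein, the genes divided as follows. Of 20 plasma components and regulators outside the myeloid products, 17 were brighter in liver, none in spleen and 3 were not called, namely C3, Cfb and Cfd, with a median difference of 5.23. Of the myeloid products 5 were measurable, C1qa, C1qb, C1qc, Cfp and Fcna, and all 5 were brighter in spleen, with a median of -1.87. Among receptors and membrane regulators, Cd59a was brighter in liver, Cr2 in spleen, and C3ar1 and Cd55 were not called. The remaining Fcnb, a ficolin of granulocyte lineage cells, and C5ar1, the receptor of the C5a peptide, were not measurable in either organ.

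**Figure D1:**
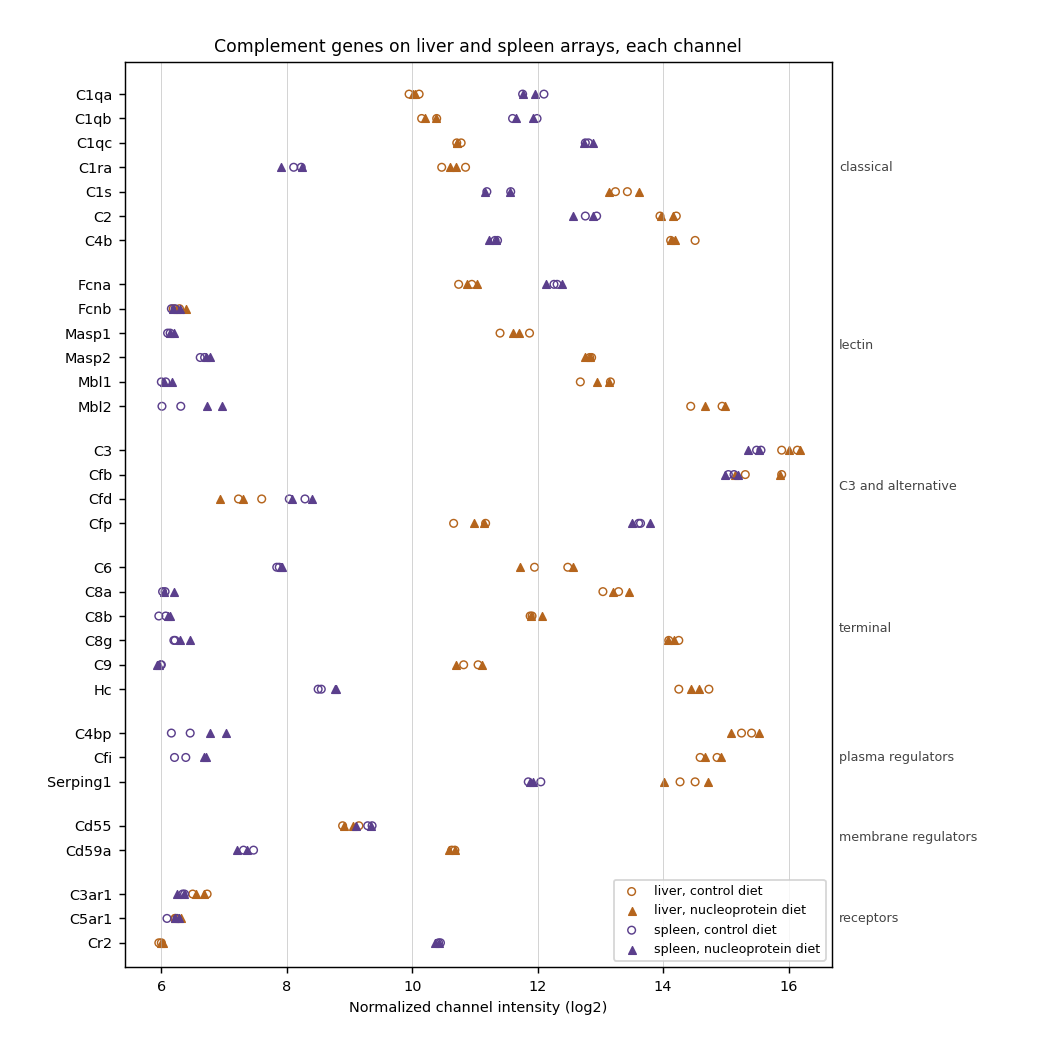
Level of each complement gene (log2 normalized intensity, horizontal axis) in all 8 channels, with liver in brown, spleen in purple, control diet as open circles and nucleoprotein diet as filled triangles; genes are grouped by pathway, and levels compare within a row only. The terminal components and plasma regulators lie to the right in liver, the C1q chains, Cfp, Fcna and Cr2 lie to the right in spleen, and C3 and Cfb are bright in both organs.

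In the classical pathway, C1q recognises antibody, the proteases C1r and C1s are its enzyme part, and C4 and C2 are their substrates. C4b, which encodes the C4 protein, was at 14.51 and 14.12 in the control channels of liver and 14.19 and 14.13 in the nucleoprotein channels. In spleen it was at 11.36 and 11.32 in the control channels and 11.23 and 11.33 in the nucleoprotein channels. All liver channels stood above all spleen channels, by 2.93 ± 0.17 (SD over the 4 pairs, 7.60-fold). C1ra was 5.78-fold brighter in liver, though a second C1ra probe, set aside for an outlier spot on a liver array, was 1.96-fold brighter and not called. C1s was 3.97-fold brighter in liver and C2 2.43-fold. The 3 chains of C1q went the other way, with C1qc 4.19-fold, C1qa 3.65-fold and C1qb 2.86-fold brighter in spleen. C4b has the close paralogue C4a, and C1ra, C1s and Cd59a have paralogues too, so their signals may include related transcripts.

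The lectin pathway held liver-bright genes together with a gene that ran towards spleen. Mbl2, mannose-binding lectin C, differed by 8.25 ± 0.51 towards liver, where its spleen probe was well above background in 3 of 4 channels. A value so near the floor depends on the background step, and it was 9.19 with a normexp offset of 10 and 11.09 in processed signals. Mbl1, mannose-binding lectin A, was not well above background in spleen and at least 118-fold brighter in liver. The lectin pathway proteases Masp2 and Masp1 were 69.4-fold and at least 45.3-fold brighter in liver. Other probes gave 29.8-fold and 27.2-fold for Masp2, and measured differences of 4.72, 2.42 and 0.31 log2 units for Masp1, the last from a probe near background in both organs. Fcna, ficolin A of macrophages, was 2.59-fold brighter in spleen. The promoters of both lectin genes were compared because Mbl1 and Mbl2 share their liver bias yet only Mbl2 was measurable in spleen. Mbl2 was measurable there only through the nucleoprotein channels, as its control channel was well above background on 1 of 2 arrays. The 250 bases before each start (RefSeq, GRCm38.p6, plus strand; Mbl1 chr14:41151206-41151455, Mbl2 chr19:30232678-30232927) have as their longest common run the 13 bases in capitals, which begin 23 bases before the start in Mbl1 and 57 in Mbl2.
Mbl1: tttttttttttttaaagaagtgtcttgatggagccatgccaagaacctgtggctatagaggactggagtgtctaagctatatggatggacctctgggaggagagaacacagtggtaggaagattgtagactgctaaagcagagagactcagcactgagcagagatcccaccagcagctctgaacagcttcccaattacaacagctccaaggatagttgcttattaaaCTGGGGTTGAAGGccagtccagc
Mbl2: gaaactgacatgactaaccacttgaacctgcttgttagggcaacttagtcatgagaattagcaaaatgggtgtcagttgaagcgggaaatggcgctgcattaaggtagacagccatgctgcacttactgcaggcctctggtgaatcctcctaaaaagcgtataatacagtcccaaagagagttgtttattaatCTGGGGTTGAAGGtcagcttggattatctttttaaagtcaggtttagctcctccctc

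C3, on which all pathways converge, and Cfb, the protease of the alternative C3 convertase, were bright in both organs. C3 was at 15.89 and 16.14 in the control channels of liver and 16.18 and 16.01 in the nucleoprotein channels. In spleen it was at 15.49 and 15.56, and at 15.53 and 15.36. The organs did not overlap, but the difference of 0.57 ± 0.12 fell short of the 2-fold bound, and that of Cfb was 0.46 ± 0.34. In processed signals the differences were 1.64 for C3 and 1.5 for Cfb, so the shortfall depends on the normalization. Cfd, factor D (adipsin), a protease best known from fat tissue, was 1.92-fold brighter in spleen and not called. Cfp, properdin, which stabilises the convertase, was 6.25-fold brighter in spleen.

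The value of C3 depended on the probe. The one that represents the gene here lies at chr17:55414567-55414626 (mm7, minus strand) and was spotted 10 times on each array. A second C3 probe at chr17:55435522-55435679 covers 158 bases of the genome with its 60 bases, so it is split in the genome as a probe over an exon junction is, and it lies further from the 3′ end of the transcript. It gave a difference of 3.12 (8.70-fold brighter in liver). The second probe is shown because of this difference between the probes.
C3 second probe: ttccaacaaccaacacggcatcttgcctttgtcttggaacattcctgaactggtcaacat

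All 6 terminal components, which build the membrane attack complex, were brighter in liver. Hc, the mouse gene of C5, was at 14.73 and 14.25 in the control channels of liver and 14.44 and 14.58 in the nucleoprotein channels. In spleen Hc was at 8.55 and 8.50 with control diet and 8.77 and 8.78 with nucleoprotein. The organ difference of Hc was 5.85 ± 0.23, or 57.6-fold. C8g, the lipocalin chain of C8, differed by 7.85 towards liver, with 3 of 4 spleen channels well above background (8.95 with an offset of 10 and 11.36 in processed signals), and C6 was 19.6-fold brighter in liver. C8a, C8b and C9 stayed close to background in every spleen channel, and liver was brighter by at least 140-fold, 56.7-fold and 29.1-fold.

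Among the plasma regulators, C4bp, the C4b-binding protein that limits the classical convertase, differed widely between the organs. It was at 15.25 and 15.41 in the control channels of liver, 15.53 and 15.08 in the nucleoprotein channels, 6.46 and 6.16 in the control channels of spleen and 7.03 and 6.78 in its nucleoprotein channels. The difference was 8.71 ± 0.42, and that of Cfi, factor I, which cleaves C3b and C4b, was 8.26 ± 0.21. Both were well above background in 3 of 4 spleen channels, and the values were 9.56 and 9.16 with an offset of 10 and 11.50 and 11.02 in processed signals. Serping1, the C1 inhibitor, was 5.47-fold brighter in liver. A second C4bp probe was only 1.63-fold brighter in liver, at levels of 6.93 and 6.23.

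In all, 3 sequence motifs were searched in the 250 bases before the start of the 24 complement genes with a promoter in the RefSeq table, on both strands. A complement gene was counted if any of its promoters held the motif, while the percentages are over single promoters, so the units differ. GTTAAT, the short core of the motif of the hepatocyte factor HNF1, was present in 5 of 13 liver-bright genes (C1ra, C4bp, C8a, C8b and Hc), in 2 of 5 spleen-bright genes (Cfp and Cr2) and in 6.43% of all 32851 promoters. TTGCNNAA, a C/EBP-type motif, was present in 2 of 13, 0 of 5 and 9.56%. GAGGAA, the core of the myeloid factor PU.1, was present in 1 of 13 (Cd59a), 3 of 5 (C1qb, C1qc and Fcna) and 23.3%. No motif of these contains another, and a match is a string of letters and not a known binding site. The promoters of C4bp (chr1:130661619-130661868, minus strand) and Hc (chr2:35061413-35061662, minus strand; both GRCm38.p6) are shown with the motif GTTAAT, or its reverse complement ATTAAC, in capitals, beginning 64 and 74 bases before the start, because these genes join a large organ difference with a positive spleen diet ratio. Mbl2, which had the largest spleen diet ratio of the complement genes (0.68), had no GTTAAT in its 250 bases. C4bp and Mbl2 were measurable in spleen only through the nucleoprotein channels, and a positive ratio is favoured by that entry. A second C4bp probe read 0.04 and -0.03 there. Of other genes with the motif, C1ra, Cfp and Cr2 had mean spleen diet ratios of -0.10, 0.02 and -0.05, and C8a and C8b were not measurable in spleen. A relation of the motif to the diet ratio was not tested.
C4bp: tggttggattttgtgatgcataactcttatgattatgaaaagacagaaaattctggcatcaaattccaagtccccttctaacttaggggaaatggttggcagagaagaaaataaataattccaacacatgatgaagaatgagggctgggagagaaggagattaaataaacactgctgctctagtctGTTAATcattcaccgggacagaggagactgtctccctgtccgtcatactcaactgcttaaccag
Hc: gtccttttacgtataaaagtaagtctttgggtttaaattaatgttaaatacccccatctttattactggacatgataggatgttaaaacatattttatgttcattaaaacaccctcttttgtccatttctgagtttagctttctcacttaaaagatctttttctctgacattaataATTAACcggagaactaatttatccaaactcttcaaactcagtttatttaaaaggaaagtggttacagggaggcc

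Cr2, which binds C3 fragments on B cells, was the receptor with the clearest organ difference. Its spleen levels were 10.45 and 10.42 with control diet and 10.42 and 10.36 with nucleoprotein. In liver this probe was not well above background in any channel, and spleen was at least 20.3-fold brighter. A second Cr2 probe (chr1:194717651-194717710, mm7, minus strand) lies further from the 3′ end, was at 6.79 in spleen and 6.38 in liver, was well above background in 3 of 4 liver channels, and differed by -0.42. It was dim where the first was bright.
Cr2 second probe: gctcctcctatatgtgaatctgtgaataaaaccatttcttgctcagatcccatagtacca
Cd59a, a membrane regulator that blocks the terminal pore, was at 10.63 and 10.68 in the control channels of liver and 7.47 and 7.31 in those of spleen, and its difference was 3.31 ± 0.11 (9.89-fold). Cd55, which dissociates convertases, differed by -0.28 ± 0.10, and C3ar1, the C3a receptor, by 0.28 ± 0.13.

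**Figure D2:**
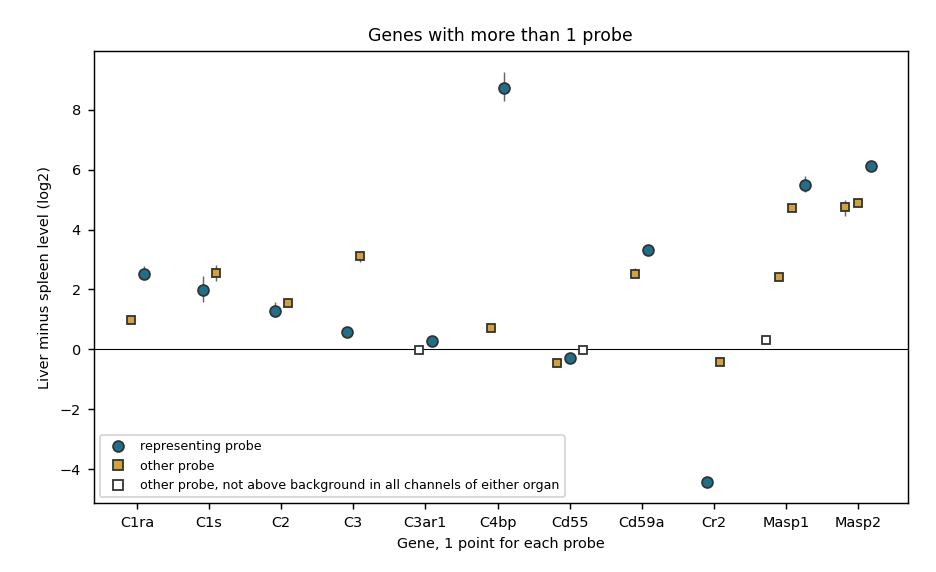
Liver minus spleen level (log2, vertical axis) for each probe of the 11 complement genes with more than 1 probe; points are the mean and bars the lowest and highest of the 4 same-diet, same-dye pairs, or of those measured. The probes of C4bp (8.71 and 0.71), Masp1 (0.31 to 5.50), Cr2 (-4.42 and -0.42) and C3 (0.57 and 3.12) lie far apart, and some probes of Masp1, C3ar1 and Cd55 were not well above background in all channels of either organ.

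The diet comparison asked whether nucleoprotein in the feed altered these genes after lipopolysaccharide. In liver none of the 28 measurable complement genes was called in either direction (0 of 28). Of all 16431 measurable genes 0.323% were called, 0.0122% as higher and 0.31% as lower. The diet ratios of the 28 complement genes ran from -0.29 to 0.15 as means, with a median of -0.01 (0.13 on array 1 and -0.08 on array 2). The median was 0.01 for the 25 plasma components and regulators and -0.02 for the 3 measurable receptors and membrane regulators, beside 0.01 over all measurable genes. With median centring in place of loess these 3 medians were 0.39, 0.14 and 0.17.

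Most liver ratios of complement genes changed sign with the dyes. Of the 28, 15 were brighter in Cy5 on both arrays and 8 in Cy3, and 5 (17.9%) had the same sign on both. Over all 16431 measurable genes, 6246 were brighter in Cy5 on both arrays, 4581 in Cy3, and 34.1% had the same sign on both. The median size of the dye part, taken as the difference of the arrays divided by 2, was 0.19 for the complement genes and 0.09 for all genes. It was 0.42 for the hepatocyte markers, of which 0 of 10 had the same sign on both arrays. In the other marker lists it ran from 0.03 (neutrophil) to 0.16 (pancreatic acinar). A large dye part in liver was thus not particular to complement genes. The terminal component C6 read 0.60 on array 1 and -0.75 on array 2, past 1.5-fold in opposite directions, as did 0.45% of all measurable genes in liver. In spleen no complement gene did so, beside 0.0219% of all genes. Cfb read 0.55 and -0.74, and Serping1 read 0.44 and -0.49. Mbl1 went the opposite way, at -0.22 and 0.46. On array 2 alone C6 and Cfb would have counted as lower, and on array 1 alone C6 would have counted as higher. Their probes (mm7) are shown as the sequences behind the values most divided by dye. C6 lies at chr15:4626022-4626081 (plus strand), Cfb at chr17:32952681-32953037 (minus strand, 357 bases of genome) and Serping1 at chr2:84609527-84611033 (minus strand, 1507 bases of genome), so the last pair are split in the genome.
C6 probe: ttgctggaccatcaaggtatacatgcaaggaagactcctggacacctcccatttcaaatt
Cfb probe: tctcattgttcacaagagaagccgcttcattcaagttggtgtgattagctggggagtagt
Serping1 probe: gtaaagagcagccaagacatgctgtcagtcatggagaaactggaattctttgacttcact

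The 5 liver genes with the same sign on both arrays had small ratios. Cfd was at -0.29 and -0.30, a mean of -0.29 ± 0.01. Its mean was -0.44 with an offset of 10 and -0.77 in the deposited log ratios, and it was not called under either. C8a was at 0.15 and 0.16, and Mbl2 at 0.22 and 0.04. Cfi was at 0.06 and 0.08, and Masp2 at -0.08 and -0.03. None of them reached the 1.5-fold bound on either array. C4b (-0.32 and 0.00, mean -0.16 ± 0.23) and Cfp (0.49 and -0.20, mean 0.15 ± 0.49) had means of similar size to C8a, but their arrays disagreed.

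**Figure D3:**
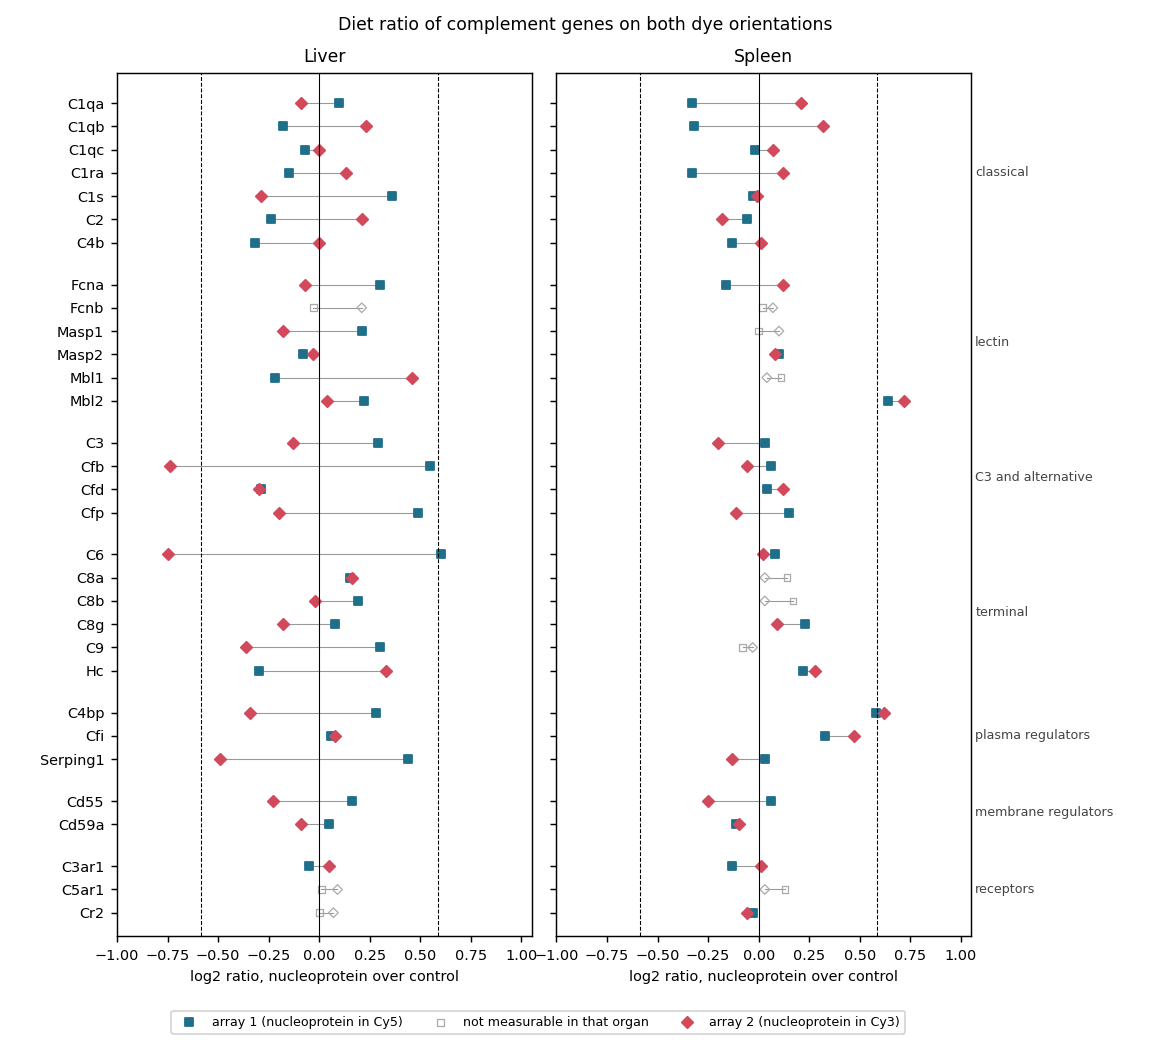
Diet ratio (log2, nucleoprotein over control, horizontal axis) of each complement gene in liver and spleen; blue squares are array 1, red diamonds array 2, a grey line joins them, open grey symbols are genes not measurable in that organ and dashed lines mark 1.5-fold. In liver long lines cross 0, as for C6 (0.60 and -0.75), while in spleen Mbl2, C4bp and Cfi lie right of 0 on both arrays.

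In spleen the liver-made lectin Mbl2 was called higher with nucleoprotein, 1 of 24 measurable complement genes, and no gene was called lower. Over all 18230 measurable genes 0.214% were called higher and 0.241% lower. Mbl2 was at 6.31 and 6.01 in the control channels and 6.96 and 6.73 in the nucleoprotein channels, and its diet ratio was 0.64 and 0.72, a mean of 0.68 ± 0.05. The nucleoprotein channels lay above both control channels, and each spleen channel was at least 7.70 log2 units below the liver channel of the same diet and dye. C4bp stood just under the bound on array 1 (1.49-fold) and past it on array 2 (1.54-fold), at 0.60 ± 0.03. Cfi was at 6.39 and 6.21 with control diet and 6.72 and 6.68 with nucleoprotein, with ratios of 0.33 and 0.47 (0.40 ± 0.09). For C4bp and Cfi, too, the diets did not overlap. The share of all genes that separate in this way was not counted, and both arrays count as 1 replicate.

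These 3 genes, C8g and C3ar1 stood well above background in the control channel of spleen on only 1 of the 2 arrays, so they were measurable through the nucleoprotein channels, and a positive ratio is favoured by that entry. The sizes depend on the background step: with a normexp offset of 10 in place of 50, Mbl2 was at 1.31, C4bp at 1.08 and Cfi at 0.76, and in the deposited log ratios Mbl2 was at 2.27, C4bp at 2.05 and Cfi at 1.36. When a gene had to be well above background in both diets, no complement gene was called in spleen, and none was called after median centring in place of loess, although the mean ratios were then 0.80 for Mbl2 and 0.71 for C4bp. The second C4bp probe gave 0.04 and -0.03 in spleen.

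Another 4 genes that were 8-fold or more brighter in liver stood well above background in spleen on both arrays in each diet. Hc read 0.22 and 0.28, a mean of 0.25 ± 0.05, Masp2 read 0.10 and 0.08, and C6 read 0.08 and 0.02. Cd59a read -0.11 and -0.10, so these 4 did not share a sign. C8g, which entered through the nucleoprotein channels, read 0.23 and 0.09. The mean ratios of the 16 spleen-measurable genes with a smaller liver excess, or brighter in spleen, lay between -0.12 and 0.08.

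Hepatocyte markers moved in the same channels. All 9 measurable ones were above 0 on both spleen arrays, from 0.20 for Cps1 to 2.21 for the fibrinogen chain Fgg. Cps1 stood well above background in 2 of 4 spleen channels, those of nucleoprotein, and a positive ratio is favoured by that entry. Over all 10 markers on the arrays, Ttr included, the mean spleen level was 7.16 and 7.03 in the control channels. It was 8.32 and 8.24 in the nucleoprotein channels. Albumin, Alb, was at 2.11 and 1.77, while Ttr, also a hepatocyte product, was not well above background in spleen. In liver no hepatocyte marker was called, and their median was 0.02. What part hepatocyte RNA has in the spleen ratios of Mbl2, C4bp, Cfi and Hc was not tested.

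**Figure D4:**
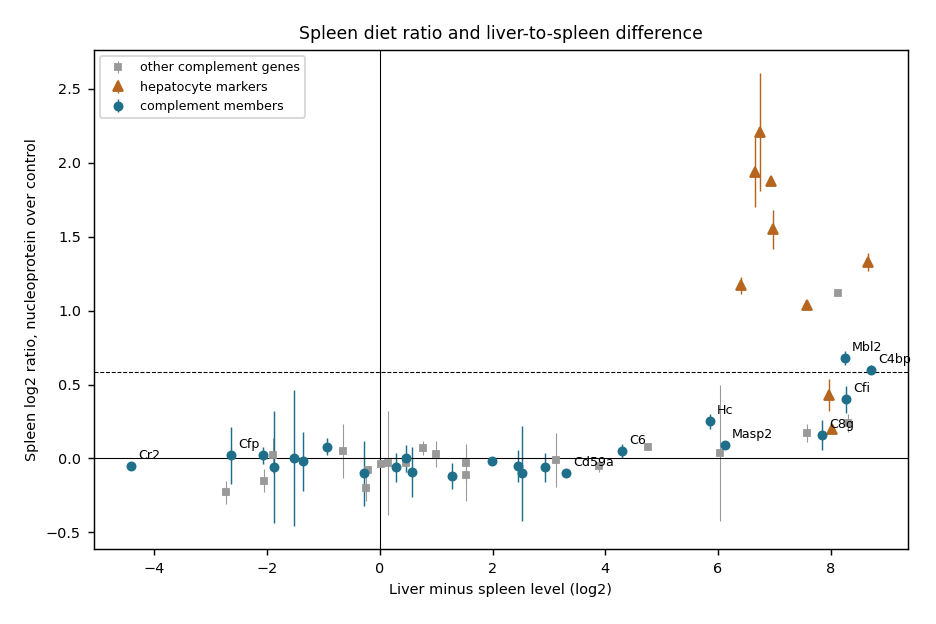
Spleen diet ratio (log2, nucleoprotein over control, mean and SD of 2 arrays, vertical axis) against liver minus spleen level (log2, horizontal axis) for the 24 spleen-measurable complement genes (circles), other complement-related genes (grey squares) and hepatocyte markers (triangles); the dashed line marks 1.5-fold. Complement genes near or left of 0 on the horizontal axis stay near 0 on the vertical axis. At the right edge Mbl2, C4bp, Cfi and C8g lie at 0.68, 0.60, 0.40 and 0.16. These right-edge genes were measurable only through the nucleoprotein channels, and a positive ratio is favoured by that entry.

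The myeloid products, measured brightly in spleen, split by dye there. C1qa read -0.33 and 0.21 and C1qb -0.32 and 0.32, while C1qc, the third chain of the same protein, read -0.02 and 0.07. Cfp read 0.15 and -0.11 and Fcna -0.16 and 0.12. None of these 5 had the same sign on both arrays, and their median was near 0 (range -0.06 to 0.02). Of the macrophage markers, 6 were measurable in spleen, with none called and a median of -0.07.

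C3 and Cfb, both bright in spleen, read 0.03 and -0.20, and 0.06 and -0.06. The second C3 probe read 0.13 and 0.21 in spleen, so the sign of C3 there depended on the probe. Of the classical proteases and substrates, C2 read -0.06 and -0.18, the only one besides C1s (-0.03 and -0.01) below 0 on both arrays. The second probe of each gene changed sign between the arrays, at -0.11 and 0.14 for C2 and -0.19 and 0.24 for C1s. The median over the 20 spleen-measurable plasma components and regulators was 0.01 (0.03 and 0.09 on the arrays).

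Receptors and membrane regulators stayed within a narrow band in spleen. The 4 measurable ones, Cr2, C3ar1, Cd55 and Cd59a, all had means below 0, from -0.10 to -0.05, with a median of -0.08 (-0.07 on array 1 and -0.08 on array 2). Cr2 read -0.03 and -0.06, beside a median of -0.01 over the 5 measurable B cell markers. Cd55 read 0.06 and -0.25, so its arrays disagreed. The gap between the plasma median of 0.01 and the receptor median was not tested.

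Other genes of the system, from a list of 31 of which 30 were on the arrays, were read the same way. In liver 0 of 26 measurable ones were called, and in spleen 1 of 20 was called higher and none lower. That gene was Vtn, vitronectin, a plasma inhibitor of the terminal pore, at 1.11 and 1.13 (1.12 ± 0.01) and 8.13 log2 units brighter in liver than in spleen. Of all measurable genes 0.323% were called in liver, and 0.214% were called higher and 0.241% lower in spleen. Between organs, 15 of 26 were brighter in liver and 3 in spleen, namely Itgax and Itgb2, chains of the complement receptors that bind iC3b, and C1qbp, a C1q-binding protein. Of all measurable genes 12.5% were brighter in liver and 16.2% in spleen.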

How the data were processed

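Scanner output came from Feature Extraction by Agilent, version 9.5.3.1 per the submitters' processing notes and 9.5.1.1 in the step name of the file headers. Per the file headers the deposited files hold mean and background intensity and processed intensity per channel, and log10 of red over green. The authors' deposited value table held, in linear units, the ratio of red over green processed intensity, not centred (column medians -0.92, 0.92, -0.96 and 0.96). Its direction is known from the scanner files, and why array 1 of each organ carries a minus sign is not.

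Background was corrected by normexp with an offset of 50 (limma 3.58.1, R 4.3.3), ratios by loess and levels by Aquantile, with control spots given no weight and outlier spots (189 to 354 per array) left out. All arrays came from 1 slide, and their number limits the precision. Probes were named through RefSeq (GRCm38.p6), and positions are those of the files (mm7). A gene was represented by its brightest probe with a value on all 4 arrays. This set aside a brighter C1ra probe, which had an outlier spot on a liver array, and allowing it was an alternative chosen after seeing the data. "At least" folds set the bright organ against the higher of the dim probe and the lowest signal well above background. In simulated data 60% (liver) and 64% (spleen) of 2-fold changes were called, 99% of 4-fold changes, and 0 unchanged probes. The simulated dye effect changed with level only and held no dye part of single probes, such as that of C6 in liver. The simulated shares therefore do not carry over to genes with such a dye part.

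The genes and lists were chosen with earlier results of these data known. By rule, values on each array are given for called genes, the 3 largest mean ratios in each organ and the brightest gene of each pathway. C6, Cfb, Serping1, Mbl1 and other genes were named after their values were seen. Housing notes name a chow, and the design, which names a purified diet, was followed.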

Additional observations from a re-analysis of the deposited data

Results flagged for a closer look

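For 2 complement genes both liver arrays moved one way and both spleen arrays the other, and neither difference between organs was tested. The diet ratio of Cfd, factor D, was lower in liver than in spleen by a difference of -0.37, with -0.29 and -0.30 on the liver arrays and 0.04 and 0.12 on the spleen arrays. That of Masp2 differed by -0.14, with -0.08 and -0.03 in liver and 0.10 and 0.08 in spleen. None of these values passed 1.5-fold. The other Masp2 probes read 0.29 and -0.42, and 0.02 and -0.01, in liver. In spleen they read -0.03 and 0.05, and -0.01 and 0.05, and were well above background in only 2 and 1 of 4 channels.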

How the results depend on the processing

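Mbl2, called in spleen, kept its direction under the alternatives run. C6 in liver, not called on both arrays, was lower without array 1 and higher without array 2. The liver plasma median (0.01) lay between -0.07 and 0.15 when 1 array was left out. The organ counts stayed within 1.5 times of the reported ones except at a bound of 4-fold, where 2 in place of 6 genes were brighter in spleen. The count of spleen genes called higher with nucleoprotein (1) was 3 with an offset of 10 or a looser bound, 4 (Mbl2, C4bp, Cfi and C8g) in the deposited log ratios and in the value table, and 0 with median centring, with a 2-fold bound or when both diets had to be above background, while the mean ratio of Mbl2 with median centring was 0.80 against 0.68. Without 1 array it ranged from 1 to 2. In liver the counts without 1 array ranged from 0 to 1 higher and from 0 to 2 lower. With median centring all liver genes had a median of 0.17, plasma components one of 0.39 (0.22 above all genes) and receptors and membrane regulators one of 0.14. The cause was not tested. The spleen receptor median (-0.08) was -0.11 with an offset of 10 and in the value table, -0.12 in the deposited log ratios, -0.07 as a mean over probes, -0.06 without a filter and -0.10 above background in both diets. Without 1 array it ranged from -0.06 to -0.03, and the plasma median in spleen from 0.03 to 0.08. Of all genes, 39 were called higher and 44 lower in spleen, against 30 and 10 with median centring, and 2 and 51 in liver, against 28 and 107 in the deposited log ratios. Processed signals at the 75th percentile moved 28 of 29 single organ differences and put 20 genes brighter in liver and 5 in spleen. Allowing the brighter C1ra probe left 17 genes brighter in liver in place of 18. Signal over background limits Mbl2, C4bp, Cfi and C8g in spleen. No paired analysis was possible because no result comes from a test, and the pairs of channels behind the organ differences only hold diet and dye equal.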
